A study of Homo sapiens with 12 samples.

Results

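The comparison described here is temozolomide against no treatment in U87 cells, an established human glioblastoma line. It rests on 4 of the 12 arrays of the study, chosen by their titles: 2 arrays of U87 cells given temozolomide (TMZ) at 20 µM for 24 h and 2 arrays of untreated U87 cells at the same time. The titles give 20 µM, whereas the design text of the series gives 100 µM, and the files do not settle which dose was used. The study also profiled U87 cells with TMZ plus Y15 (2 arrays), U87 cells with 10 µM Y15 alone (2 arrays) and a second glioblastoma line, DBTRG, with and without Y15 (2 arrays each). Y15 inhibits focal adhesion kinase, which PTK2 encodes. Nothing in the labels says that the 2 arrays of a group came from separate cultures, so every p-value below measures the spread between arrays, which may be technical.

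Temozolomide is the alkylating drug used as first-line chemotherapy of glioblastoma. It methylates DNA bases, and the lesion at the O6 position of guanine is held to be the toxic one: MGMT removes the methyl group directly, whereas mismatch repair acts on the mispair that forms when the base is replicated and leads on to strand breaks and a checkpoint arrest. Damaged cells typically induce CDKN1A, an inhibitor of cyclin-dependent kinases, together with genes for nucleotide supply, repair and apoptosis, while base excision repair removes the other methylated bases.

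Levels are log2 values of background-corrected, quantile-normalized signal, and a change is the TMZ mean minus the untreated mean, with its standard error from limma (n = 2 arrays per group). A gene was called where its Benjamini-Hochberg adjusted p over all 11423 genes tested was under 0.05. The scanner detected 16889 and 16549 of 47323 probes on the TMZ arrays, against 16431 and 15981 on the untreated arrays, within the range of 14437 to 16889 over the series. The astroglial markers GFAP and S100B were not detected on any of the 4 arrays compared, whereas NES, VIM and CD44 were detected on all 4. They belong to a list of 22 glioma and astroglial genes. Of its 14 tested members, 7 were detected on all 4 arrays and 3 on none. SOX2 and NCAN, also listed, were detected on both TMZ arrays and on neither untreated array, as were 76 of the 11423 genes tested. Neither was called. Over the 14 tested members, 6 had a higher mean with TMZ and 8 a lower mean, with a median change of -0.07.

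Few genes passed the test at this time. Of 11423 genes, 1 was called, CDKN1A, which is 0.00875% of the genes tested. At an unadjusted p under 0.05 there were 465 genes (4.07%), of which 208 had a higher mean with TMZ (1.82%) and 257 a lower mean (2.25%), where 571.15 would be expected by chance. Changes over genes had an SD of 0.17. The differences between the arrays of a group, with an SD of 0.24 for TMZ and 0.22 for untreated cells, alone give an SD of 0.16 for a difference of 2-array means. A change of more than 1.5-fold in the means was seen for 52 genes (0.455%), 22 higher (0.193%) and 30 lower (0.263%) with TMZ. Both TMZ arrays lay above both untreated arrays for 18% of genes and below both for 17.9%.

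**Figure D1:**
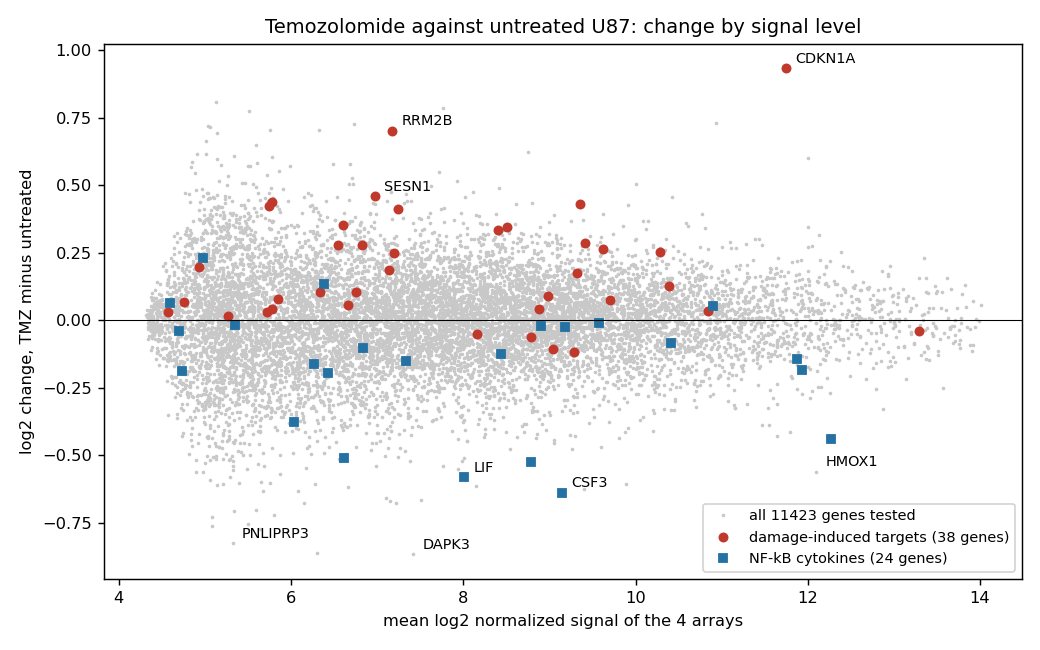
Log2 change (TMZ minus untreated, y axis) against the mean log2 normalized signal of the 4 arrays (x axis) for each of the 11423 genes tested (grey), with the damage-induced targets as red circles and the NF-kB cytokines as blue squares. CDKN1A stands at 0.93 among bright genes, where most other genes lie close to 0, and dim genes scatter more widely.

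CDKN1A, which encodes the p21 inhibitor of cyclin-dependent kinases, had log2 levels of 12.21 and 12.21 on the TMZ arrays, against 11.29 and 11.27 on the untreated arrays. The arrays of each group were nearly identical and the groups did not overlap. CDKN1A rose by 0.93 ± 0.10 on the log2 scale, or 1.91-fold (limma, adjusted p = 0.0254). A second CDKN1A probe had 5.67 and 4.98 on the TMZ arrays, against 4.62 and 4.67 on the untreated arrays, and was detected on 1 of the 2 TMZ arrays and on neither untreated array. The CDKN1A change lay between 0.81 and 0.94 in every setting run, but the call was lost when only the 4 arrays compared were fitted (limma, adjusted p = 0.536), when only the U87 arrays were fitted (0.0875), with median centring (0.403) and when either array of either group was left out (0.474 to 0.576). The next smallest adjusted p of any gene was 0.254.

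The RefSeq promoter window of CDKN1A, 250 bases before to 50 after the gene's start (GRCh38.p14, chr6:36678464-36678763, plus strand), is shown because CDKN1A is the called gene. The other windows shown belong to the cell cycle genes described below: CDT1 (chr16:88803539-88803838, plus strand), which licenses replication origins, and CCNB2 (chr15:59104896-59105195, plus strand), a mitotic cyclin. Each had the smallest p among the list members considered whose first listed window holds the letters in question. Not every list member was considered, and DSCC1, also described below, had a smaller p than CDT1. Capitals mark GGGCGG (a GC box) in CDKN1A, TTCCCGC or TTGGCGC (letters of E2F sites) in CDT1, and CCAAT and TTTGAA (a cell cycle homology region) in CCNB2, searched on both strands.
CDKN1A: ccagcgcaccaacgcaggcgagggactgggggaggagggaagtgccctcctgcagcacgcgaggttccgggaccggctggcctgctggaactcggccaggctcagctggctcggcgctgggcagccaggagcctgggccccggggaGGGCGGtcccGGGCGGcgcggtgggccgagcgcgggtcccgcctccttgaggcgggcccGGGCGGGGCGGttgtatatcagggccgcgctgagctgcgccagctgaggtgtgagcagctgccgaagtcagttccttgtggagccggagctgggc
CDT1: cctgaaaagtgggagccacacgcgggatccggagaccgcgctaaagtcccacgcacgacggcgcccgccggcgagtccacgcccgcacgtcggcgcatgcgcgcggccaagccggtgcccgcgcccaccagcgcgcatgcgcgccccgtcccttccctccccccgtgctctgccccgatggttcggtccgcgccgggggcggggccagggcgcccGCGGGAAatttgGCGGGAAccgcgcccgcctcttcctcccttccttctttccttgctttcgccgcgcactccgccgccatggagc
CCNB2: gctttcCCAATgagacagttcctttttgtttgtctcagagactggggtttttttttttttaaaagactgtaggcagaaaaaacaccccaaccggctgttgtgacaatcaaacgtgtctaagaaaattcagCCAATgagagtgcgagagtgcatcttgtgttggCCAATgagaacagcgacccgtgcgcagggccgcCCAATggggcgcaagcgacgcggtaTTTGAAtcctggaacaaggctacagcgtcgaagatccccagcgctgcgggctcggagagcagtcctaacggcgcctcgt
The CDKN1A window held 4 GGGCGG matches, of which the last 2 overlap, and 69.29% of the tested genes with a window and 44.95% of all 35116 windows held at least 1. The E2F letters were in 65.79% of the 38 G1/S and replication genes with a window, against 14.87% of the tested genes with a window and 9.232% of all windows. TTTGAA was in 68.42% of the 38 G2/M genes with a window, against 10.13% of the tested genes and 15.16% of all windows. CCAAT was in 73.68% of those G2/M genes and in 34.61% of all windows. A match is a description of these letters and no evidence of binding.

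Genes known to be induced by DNA damage leaned upward. Of 40 listed, 38 were tested, and 33 of them had a higher mean with TMZ, against 50.3% of all genes tested, with a median change of 0.15, against 0.0013 over all genes. Both TMZ arrays lay above both untreated arrays for 19 members (50%) and below both for 1 (2.63%), against 18% and 17.9% of all genes. An unadjusted p under 0.05 was found for 9, all with a higher mean, against 1.82% of all genes. Of the 38, 3 were not detected on any of the 4 arrays. The median was 0.0903 without background correction, 0.0950 with the deposited log2 values and 0.16 to 0.22 with 1 array left out, and the share with a higher mean was 68.4% without TMZ array 2, against 86.8% with all arrays. Only CDKN1A among them was called, so the values of the others are given as measured.

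RRM2B, the ribonucleotide reductase subunit that supplies nucleotides for repair, had 7.84 and 7.22 on the TMZ arrays, against 6.77 and 6.88 on the untreated arrays (change 0.70 ± 0.20). The TMZ arrays lay above both untreated arrays but differed from each other by nearly as much as the group means did. SESN1, a stress-induced regulator of mTORC1 signalling, had 7.15 and 7.25 with TMZ, against 6.65 and 6.84 untreated (0.46 ± 0.12). AEN, an apoptosis-enhancing nuclease, had 9.66 and 9.47 with TMZ, against 9.17 and 9.10 untreated (0.43 ± 0.12). For these probes of both genes the groups did not overlap, and the gap between them exceeded the gap within either. A dimmer AEN probe had 8.112 and 8.487 with TMZ, against 8.107 and 8.007 untreated. There the gap within the TMZ arrays exceeded the gap between the groups.

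DDB2, which recognizes helix-distorting damage in nucleotide excision repair, had 7.35 and 7.55 with TMZ, against 6.98 and 7.10 untreated (0.41 ± 0.14). POLH, the lesion-bypass polymerase eta, had 5.81 and 6.10 with TMZ, against 5.49 and 5.57 untreated (0.42 ± 0.14). GDF15, a secreted stress cytokine, had 8.58 and 8.78 with TMZ, against 8.33 and 8.34 untreated (0.34 ± 0.12). In all 3 genes the higher untreated array was below the lower TMZ array. CCNG2, an unconventional cyclin linked to arrest, had a change of 0.44 ± 0.16, and SPATA18, which takes part in mitochondrial quality control, one of 0.35 ± 0.14.

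Other well-known members did not share this. MDM2, a ubiquitin ligase and one of the most used readouts of this response, had 6.17 and 5.62 on the TMZ arrays, against 5.62 and 6.005 on the untreated arrays. Its groups overlapped, and its change of 0.08 ± 0.23 changed sign when 1 array was left out. GADD45A, a growth arrest gene, had 9.07 and 8.90 with TMZ, against 9.05 and 9.14 untreated (-0.11 ± 0.13), also with overlap. A dimmer GADD45A probe had 8.43 and 8.49 with TMZ, against 8.82 and 8.55 untreated, lower without overlap. Among apoptosis genes, PMAIP1, a BH3-only protein, had a change of 0.28 ± 0.16 with both TMZ arrays above. The BCL2 family as a whole had a median of 0.07 over 14 tested members, 10 of them with a higher mean and 0 called. MCL1, an antiapoptotic member, had 9.39 and 9.46 with TMZ, against 9.64 and 9.60 untreated.

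**Figure D2:**
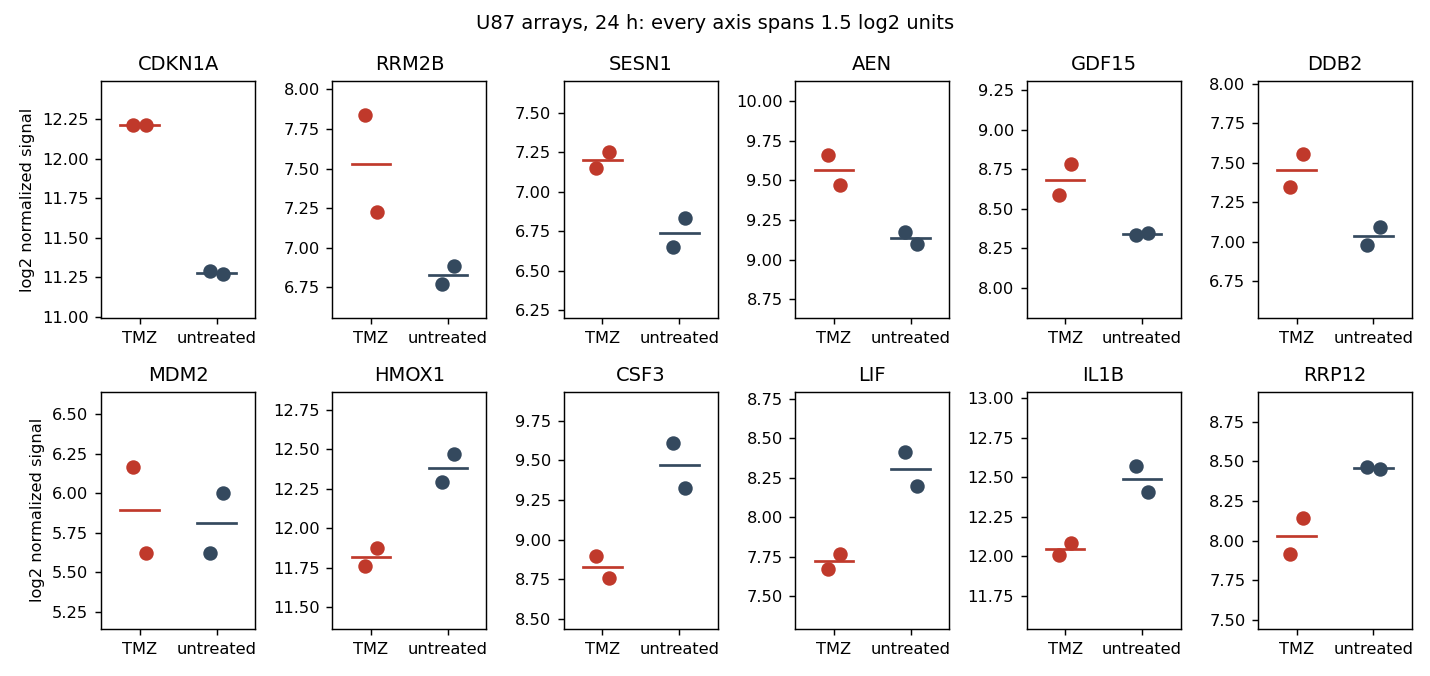
Log2 normalized signal of 12 genes on the 2 TMZ arrays (red, left) and the 2 untreated arrays (dark, right), with points for arrays and lines for group means, each y axis spanning 1.5 log2 units. CDKN1A shows tight, separate groups at 12.21 and 12.21 against 11.29 and 11.27, MDM2 overlaps, and HMOX1, CSF3, LIF, IL1B and RRP12 lie lower with TMZ.

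Most proliferation genes also had a higher mean with TMZ, by small amounts. Of 43 tested G1/S and replication genes, 32 had a higher mean, the median change was 0.12, both TMZ arrays lay above for 21 and below for 3, and 0 were called. Of 48 tested G2/M and mitosis genes, 38 had a higher mean, the median was 0.10, both TMZ arrays lay above for 19 and below for 2, and 0 were called. For comparison, both TMZ arrays lay above for 18% of all genes and below for 17.9%.

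DSCC1, a subunit of a clamp loader that acts in sister chromatid cohesion, had 8.40 and 8.29 with TMZ, against 7.73 and 8.01 untreated (0.47 ± 0.15). CCNE1, the cyclin that drives entry into S phase, had 7.93 and 7.97 with TMZ, against 7.42 and 7.66 untreated (0.41 ± 0.15). RRM2, the S-phase ribonucleotide reductase subunit, had 9.43 and 9.06 with TMZ, against 8.90 and 8.81 untreated (0.39 ± 0.15). In these 3 genes the groups did not overlap.

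CDT1 had 8.81 and 8.75 with TMZ, against 8.28 and 8.57 untreated (0.36 ± 0.15). CCNB2 had 10.74 and 10.79 with TMZ, against 10.37 and 10.43 untreated (0.36 ± 0.11). KIF2C, a kinesin that corrects spindle attachments, had 8.98 and 9.04 with TMZ, against 8.51 and 8.65 untreated (0.43 ± 0.15). The lean was not shared by every marker of cycling. PTTG1, securin, had a change of 0.35 ± 0.12, whereas CCNB1, the main mitotic cyclin, had 8.996 and 9.08 with TMZ, against 9.19 and 9.16 untreated (-0.14 ± 0.14). MKI67, the Ki-67 antigen, had overlapping groups (0.14 ± 0.24), as did PCNA, the replication clamp (0.12 ± 0.18). E2F1, a transcription factor of S-phase genes, had a change of -0.14 ± 0.19.

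Replication-dependent histones, whose messages are made in S phase, mostly had a lower mean: 6 of 19 tested were higher and the median was -0.10, or -0.0553 without TMZ array 1. Both TMZ arrays lay above for 0 of them and below for 3, or 15.8%, against 17.9% of all genes. H2BC12 had 9.43 and 9.24 with TMZ, against 9.69 and 9.70 untreated. A dimmer H2BC12 probe did not share this, with 7.257 and 7.236 with TMZ, against 7.176 and 7.237 untreated, which overlap. The remaining cyclin and kinase genes were split, with 10 of 19 higher and a median of 0.04, which ran between -0.0225 without TMZ array 1 and 0.0986 without untreated array 1. CDKN2B, another kinase inhibitor, was detected on both TMZ arrays and on neither untreated array, and was at least 1.08-fold higher with TMZ without a call (limma, adjusted p = 0.9998). That probe had 5.34 and 5.57 with TMZ, where the lowest detected signals on those arrays were 5.25 and 5.30. The other CDKN2B probes were not detected on any of the 4 arrays. The 3 CDKN2A probes were not detected on any of the 4 arrays.

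Among the pathways that act on methylated bases, MGMT was not detected on any of the 4 arrays. Of 5 tested mismatch repair genes, 4 had a higher mean and 0 were called. The share with a higher mean was 20% without untreated array 1 and 100% without untreated array 2, so no direction can be read from it. MSH6, a mismatch recognition subunit, had 10.24 and 10.11 with TMZ, against 10.02 and 10.28 untreated (0.02 ± 0.13). PMS2, an endonuclease of the pathway, had 7.13 and 7.15 with TMZ, against 6.97 and 7.17 untreated (0.07 ± 0.17). Both genes overlapped between groups. EXO1, the exonuclease that excises the mismatched strand, had 8.44 and 8.46 with TMZ, against 8.002 and 8.19 untreated (0.36 ± 0.18), without overlap.

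Base excision repair had a median of 0.03 over 22 tested genes, with 14 higher, and of -0.0015 without TMZ array 2. MPG, the glycosylase that removes methylated purines, had 5.40 and 5.98 with TMZ, against 5.28 and 5.50 untreated, which overlap. NEIL3, another glycosylase, had 7.47 and 7.20 with TMZ, against 6.96 and 6.83 untreated (0.44 ± 0.24). Nucleotide excision repair was centred near 0 (median 0.0047, 10 of 20 higher, and -0.0179 with the mean of a gene's probes). End joining and lesion bypass had a median of 0.06 with 12 of 17 higher, which ran between 0.0340 without TMZ array 2 and 0.0900 without untreated array 2.

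Of 30 tested recombination, Fanconi and checkpoint genes, 20 had a higher mean and the median was 0.08, or 0.0235 without untreated array 1 and -0.0026 without TMZ array 2. Both TMZ arrays lay above for 8 of them and below for 8, or 26.7% each, against 18% and 17.9% of all genes. FANCI, which marks damaged forks with its partner FANCD2, had 8.38 and 8.30 with TMZ, against 7.82 and 8.08 untreated (0.39 ± 0.16). ATR, the kinase that senses stalled forks, was detected on both untreated arrays and on neither TMZ array, and was at least 1.22-fold higher in untreated cells without a call (limma, adjusted p = 0.9998). That probe had 5.41 and 5.70 untreated, where the lowest detected signals on those arrays were 5.31 and 5.38. The other ATR probes were not detected on any of the 4 arrays.

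**Figure D3:**
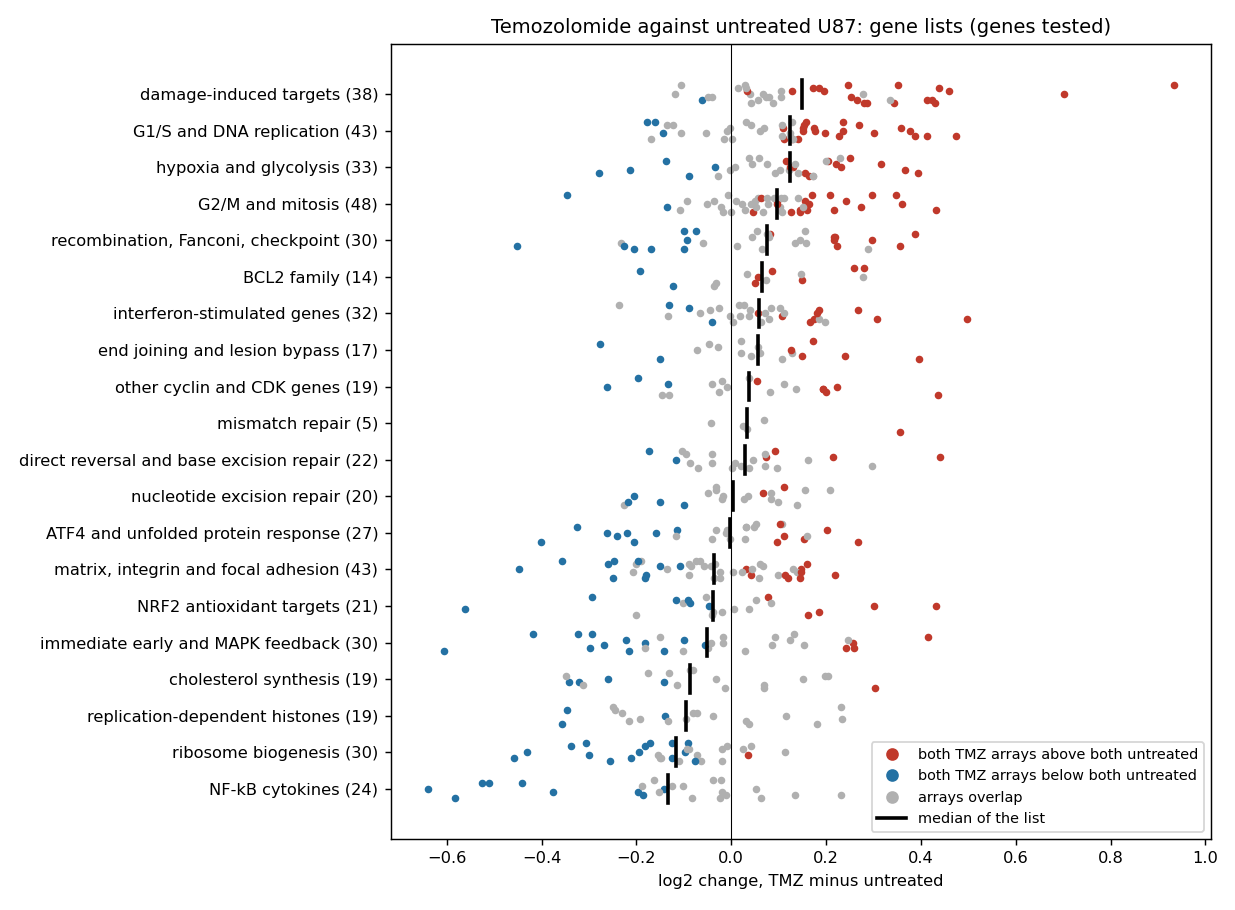
Log2 change (TMZ minus untreated, x axis) of each tested gene in 20 lists (rows, number of tested genes in parentheses), with black bars for list medians. Red points have both TMZ arrays above both untreated arrays, blue points both below, and grey points overlap. Medians run between -0.13 for NF-kB cytokines and 0.15 for damage-induced targets.

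Inflammatory genes leaned downward. Of 24 tested NF-kB cytokines and feedback genes, 4 had a higher mean with TMZ, the median was -0.13, both TMZ arrays lay below both untreated arrays for 9 and above for 0, and 0 were called. For comparison, both TMZ arrays lay below for 17.9% of all genes. The median was -0.0813 without untreated array 1, -0.0834 without background correction and -0.16 without untreated array 2. CSF3, the granulocyte growth factor, had 8.90 and 8.76 with TMZ, against 9.61 and 9.33 untreated (-0.64 ± 0.13, limma, adjusted p = 0.695). LIF, a cytokine of the IL-6 family, had 7.67 and 7.77 with TMZ, against 8.41 and 8.20 untreated (-0.58 ± 0.14). IL1B, interleukin 1 beta, had 12.01 and 12.09 with TMZ, against 12.57 and 12.41 untreated (-0.44 ± 0.12). In all 3 the groups were apart.

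PTGS2, the inducible cyclooxygenase, had 8.50 and 8.55 with TMZ, against 8.92 and 9.18 untreated (-0.53 ± 0.18). CXCL2, a neutrophil chemokine, had a change of -0.51 ± 0.22, and TNFAIP3, a feedback inhibitor of NF-kB, one of -0.38 ± 0.14. CXCL8, another neutrophil chemokine, had 11.99 and 11.68 with TMZ, against 11.9995 and 12.05 untreated (-0.19 ± 0.13).

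Immediate early and MAPK feedback genes had a median of -0.05 over 30 tested members, with both TMZ arrays below for 12 (40%) and above for 4 (13.3%), against 17.9% and 18% of all genes. The median was -0.11 without TMZ array 1 and -0.0138 without TMZ array 2, and the share with a higher mean ran between 23.3% and 50% with 1 array left out. DUSP6, a phosphatase that switches off ERK, had 9.71 and 9.45 with TMZ, against 10.39 and 9.99 untreated (-0.61 ± 0.22). IER2 had 6.71 and 6.88 with TMZ, against 7.12 and 7.30 untreated (-0.42 ± 0.12). JUN, a subunit of AP-1, had 10.95 and 10.90 with TMZ, against 11.21 and 11.24 untreated (-0.30 ± 0.11). EGR1, by contrast, had 8.10 and 8.01 with TMZ, against 7.83 and 7.80 untreated (0.24 ± 0.17), and SPRY1 a change of 0.41 ± 0.17.

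Ribosome biogenesis genes leaned downward as a list: 4 of 30 had a higher mean, the median was -0.12, and both TMZ arrays lay below for 15 (50%) and above for 1 (3.33%), against 17.9% and 18% of all genes, with 0 called. RRP12 had 7.92 and 8.14 with TMZ, against 8.46 and 8.46 untreated (-0.43 ± 0.13). TSR1 had 8.55 and 8.73 with TMZ, against 8.94 and 8.94 untreated (-0.31 ± 0.11). DKC1, the pseudouridine synthase dyskerin, had 10.29 and 10.33 with TMZ, against 10.62 and 10.60 untreated (-0.30 ± 0.11). The groups of these genes did not overlap. MYC, which drives many genes of this kind, had overlapping groups (-0.18 ± 0.14). A dimmer MYC probe had 6.91 and 6.82 with TMZ, against 7.22 and 7.07 untreated, without overlap.

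Stress pathways outside the damage response were mixed. HMOX1, the haem oxygenase induced by oxidative stress, had 11.76 and 11.88 with TMZ, against 12.29 and 12.47 untreated (-0.56 ± 0.12), while AKR1C3, an aldo-keto reductase, had 8.90 and 8.76 with TMZ, against 8.37 and 8.43 untreated (0.43 ± 0.12). The 21 tested NRF2 targets had a median of -0.04, or 0.0196 without untreated array 1. The ATF4 and unfolded protein list was centred at -0.0021 (-0.0335 to 0.0267 with 1 array left out), with PPP1R15A, a phosphatase subunit that restores translation, at -0.40 ± 0.11 and DDIT3 overlapping. Hypoxia and glycolysis genes had a median of 0.12, with 26 of 33 higher, and of 0.0696 without TMZ array 1.

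The genes with the smallest p on either side, other than CDKN1A, had adjusted p-values of 0.254 or more (limma). On the higher side, CXADR, an adhesion receptor, had 7.10 and 7.09 with TMZ, against 6.41 and 6.32 untreated (0.73 ± 0.14). ACTA2, smooth muscle actin, had 10.70 and 10.61 with TMZ, against 10.17 and 10.22 untreated (0.46 ± 0.10). HEMK1, a methyltransferase, was detected on both TMZ arrays and on neither untreated array, and was at least 1.49-fold higher with TMZ (adjusted p = 0.520). CYFIP2 (0.62 ± 0.15) and ZNF337 (0.53 ± 0.13) also had separate groups.

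On the lower side, B4GALT2, a galactosyltransferase, had 6.74 and 6.89 with TMZ, against 7.45 and 7.52 untreated (-0.67 ± 0.12). DAPK3, a death-associated kinase, had 6.88 and 7.09 with TMZ, against 8.11 and 7.60 untreated (-0.87 ± 0.20). PNLIPRP3 and IL36RN were detected on both untreated arrays and on neither TMZ array, at least 1.38-fold and at least 1.51-fold higher in untreated cells (limma, adjusted p = 0.254 and 0.520). VTRNA2-1, a noncoding RNA annotated as a vault RNA, had 7.05 and 7.30 with TMZ, against 7.82 and 7.87 untreated (-0.67 ± 0.15). The other 2 tested genes with that annotation also had both TMZ arrays below, as did 17.9% of all genes. VTRNA1-1, among them, was detected on both untreated arrays and on neither TMZ array (-0.29 ± 0.16). Over all genes tested, 76 were detected on both TMZ arrays and no untreated array and 33 the other way round, while the TMZ arrays had more probes detected in all.

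The same drug was also added to Y15-treated U87 cells, in 4 arrays that share none with the comparison above. CDKN1A had 12.27 and 12.35 with TMZ plus Y15, against 12.35 and 12.37 with Y15 alone. Both Y15 arrays lay above the 2 arrays with TMZ alone. The change of -0.05 was not called (limma, adjusted p = 0.888), and the difference between the 2 CDKN1A changes was -0.99 with an adjusted p of 0.0626, which passed the threshold in 6 of the alternatives (0.000856 to 0.0320). TMZ added to Y15 called 35 genes (0.306%), 10 with a higher mean (0.0875%) and 25 with a lower mean (0.219%). One of them was CCNG2, with a change of 0.94 (limma, adjusted p = 0.0419), a call lost when any 1 of these 4 arrays was left out. The count of 35 was 0 without either TMZ plus Y15 array or without Y15 array 1, and 70 without Y15 array 2.

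The damage-induced list leaned upward there too, with 29 of 38 higher, against 54.6% of all genes, and a median of 0.21, against 0.02 over all genes. That lean was not particular to damage genes. The ATF4 and unfolded protein list had 22 of 27 higher (median 0.13), and the NRF2 targets 17 of 21 (median 0.13). Matrix, integrin and focal adhesion genes went the other way, with 7 of 43 higher (median -0.13). SESN1 had changes of 0.46 with TMZ alone and 0.45 with TMZ added to Y15, and AEN had 0.43 and 0.30. RRM2B had 0.70 and 0.15, and DDB2 had 0.41 and -0.04. The ribosome biogenesis list had a median of -0.12 with TMZ alone and 0.08 with TMZ added to Y15, and the G1/S list 0.12 and -0.01. Over all 11423 genes, which are not independent replicates, the changes of the 2 steps had a Pearson r of -0.027 and a Spearman rho of -0.029. No gene passed the test of the difference in limma, with 950 at an unadjusted p under 0.05 (8.32%), although other settings called up to 57, and 26 were called without Y15 array 2.

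**Figure D4:**
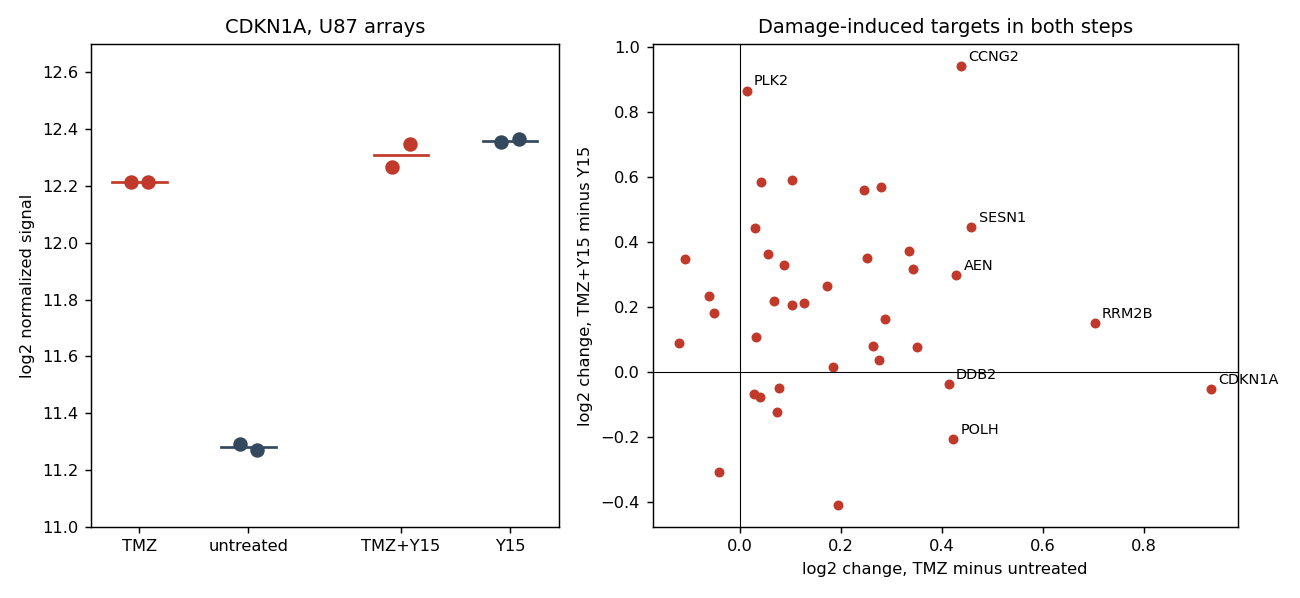
Left: CDKN1A log2 normalized signal on each U87 array, with lines for group means, for TMZ, untreated, TMZ plus Y15 and Y15. Right: log2 change with TMZ added to Y15 (y axis) against log2 change with TMZ alone (x axis) for the 38 damage-induced targets tested. CDKN1A stands at 0.93 and -0.05, and SESN1 at 0.46 and 0.45.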

How the data were processed

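Messenger RNA was measured on single-colour Illumina bead arrays. The deposited intensity table holds 1 linear signal per probe and array, and its medians differ between arrays. It also gives, per the file headers, a detection p-value for every signal. The authors' other table, of log2 values with near-equal array medians, served as an alternative, with a normalization not given in the sources used here. GenomeStudio is the software listed in the submitters' processing notes. Frozen tissue is named as the RNA source in the extraction protocol, while the samples are labelled as cell lines. The number of arrays limits the precision.

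Signals were corrected with limma 3.58.1 (R 4.3.3) by normexp from the detection p-values with an offset of 16, put on the log2 scale and quantile normalized. The offset makes changes of dim genes too small. Probes with a detection p under 0.01 on at least 2 of the 12 arrays were kept (19354). By the platform annotation 30113 probes have 1 gene symbol, 8 have several and 17202 are unnamed. The brightest kept probe stood for each gene, which left 11423 genes. A model of 6 group means was fitted to the 12 arrays (6 residual degrees of freedom), moderated with eBayes and adjusted by Benjamini-Hochberg. A probe undetected throughout 1 group was given a lower bound, set against the lowest signal among detected probes.

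The arrays compared and the gene lists were chosen with earlier results of these data known. Genes were named where they were called, were among the 8 smallest p in each direction without overlap, were among the 3 smallest p of a list, or were on a short list of known genes. Members of 6 lists at an unadjusted p under 0.05 (damage, G1/S, G2/M, NF-kB, immediate early, ribosome biogenesis) were added after their values were seen. Of the 10 genes that the rule names only for TMZ added to Y15, CCNG2 is described, as a damage-induced gene; the others of the 10, and some further genes the rule names, are not. Promoter windows are from RefSeq (GRCh38.p14), and 28 of the 38 damage-induced genes tested had one.

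The fit was tested on simulated data for TMZ against untreated with 11423 genes, under 2 choices of noise and 10 runs of each. With each gene's raw spread it recovered 74.6% of changes of 1 on the log2 scale and 98.8% of changes of 2, and 4.77% of calls were false (0.8% to 10.6% per run). With moderated spreads it recovered 90.0% and 99.7%, and 4.54% of calls were false. Of changes of 0.5, 21.8% and 19.0% were recovered. Each run planted changes in far more genes than were called in these data. The Benjamini-Hochberg adjustment is easier to pass where many genes change. The recovered shares may therefore be too high for this comparison. The second choice of noise and the repeats were added after a first run with raw spreads gave the 10.6%.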

Additional observations from a re-analysis of the deposited data

How the results depend on the processing

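For TMZ against untreated, the count of called genes (1) became 0 with median centring, U87 arrays only, the 4 arrays compared, the mean of a gene's probes, every array left out in turn (0 to 0) and, in an alternative chosen after seeing the data, all kept probes tested singly. The cause was not tested. The CDKN1A change was then 0.87, 0.93, 0.93, 0.81, 0.92 to 0.94 and 0.93, and its adjusted p over all settings ran between 1.47e-05 and 0.576. With the replicate number as a block the count was 0 and the CDKN1A change 0.93 (adjusted p = 0.184); replicate differences of the TMZ and untreated arrays correlated at -0.040, so the numbers were not taken to pair the arrays. For TMZ added to Y15, the 35 called genes became 149 without background correction, 135 with offset 50, 3715 with median centring (which moves the median of all genes), 149 with the deposited log2 values, 14 without a filter, 62 with probes detected in all arrays compared, 88 in at least 2, 116 with U87 arrays only, 0 with the arrays compared, 215 with array weights, 139 with a trended prior and 0 to 70 with an array left out. The difference of both steps (0 called) became 54, 22, 2 and 57 under the first 4 of these, 5 with probes detected in all arrays, 12 with weights, 20 with the trended prior and 0 to 26 with an array left out. The CDKN1A difference passed the threshold with -0.96 (no background correction), -0.98 (offset 50), -0.96 (deposited values) and -0.99 (detected in all, weights, trended prior). The CDKN1A change with Y15 present turned to 0.31 with median centring and 0.11 with the mean of probes. MSH3 turned to -0.0945 with the mean of probes. With an array left out, changes spanned 0 for DDIT3 (-0.15 to 0.25), MDM2 (-0.19 to 0.35), MKI67 (-0.13 to 0.42), MSH3 (-0.0640 to 0.133), MSH6 (-0.11 to 0.16), PCNA (-0.0134 to 0.261), PMS2 (-0.0296 to 0.170) and PTK2 (-0.0668 to 0.0750). Over 102 named genes other than CDKN1A, 1704 of 1718 recomputed changes kept their sign, 14 turned and 0 were called. Part of this was fixed in advance. Fits of the U87 arrays only, of the arrays compared, with array weights, with the trended prior and with the replicate block keep the same group means. Their changes could not turn. Probes near background limit what can be seen of dim genes.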

Other observations

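Interferon-stimulated genes had a median change of 0.06 over 32 tested members, with both TMZ arrays above for 9 (28.1%) and below for 3 (9.38%), against 18% and 17.9% of all genes. That median was 0.0188 without untreated array 1, 0.0228 without TMZ array 2 and 0.0997 without TMZ array 1. TRIM22, an antiviral ubiquitin ligase, had 7.81 and 7.93 with TMZ, against 7.50 and 7.25 untreated (0.50 ± 0.14). Cholesterol synthesis genes had a median of -0.09 over 19, which turned to 0.0236 without untreated array 2 and 0.0099 without TMZ array 1 and was -0.17 without untreated array 1. Of these, LSS, lanosterol synthase, had 8.68 and 8.57 with TMZ, against 8.94 and 8.99 untreated. Matrix, integrin and focal adhesion genes had both TMZ arrays above for 9 (20.9%) and below for 10 (23.3%) of 43, with a median of -0.04 that was -0.0025 without TMZ array 2 and -0.0185 without untreated array 2. PLAU, urokinase, had 13.46 and 13.43 with TMZ, against 13.74 and 13.65 untreated (-0.25 ± 0.11). PTK2, the gene of focal adhesion kinase, had 11.01 and 10.89 with TMZ, against 10.87 and 11.02 untreated. A dimmer PTK2 probe had 6.37 and 6.32 with TMZ, against 5.93 and 6.08 untreated, without overlap.

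Of the 4101 kept probes without a gene symbol, 0 were called in limma and 165 had an unadjusted p under 0.05 (4.02%), with a lowest adjusted p of 0.0969.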
